A study of Salix matsudana with 3 samples.

Results

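Small RNAs listed for Salix matsudana, the Chinese willow, comprise 42 entries whose names begin with PC and carry no family number, and 163 entries that carry the names of miRNA families. The 42 were taken as the predicted miRNA candidates, by that name alone. The 42 entries hold 41 distinct sequences, on 22 precursors from 19 contigs that the table does not annotate. RNA came from roots and stems of 30-day-old plants. The untreated library came from plants given no salt, and the salt library from plants kept for 2 days in NaCl at 100 mmol per litre. A degradome library was made from the untreated and salt samples mixed. The labels name no genotype, cultivar or number of plants. There was 1 library per condition and no untreated library at 2 days, so no difference below has a replicate check, and salt and elapsed time cannot be told apart.

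In plants, a miRNA is cut by a Dicer-like enzyme from a folded transcript, as a short duplex of 2 arms whose 3′ ends stick out by about 2 bases. The arm that enters an Argonaute protein guides it to matching messenger RNAs, which are cut near the middle of the match. Long inverted repeats also fold into hairpins, and are known as sources of small interfering RNAs of 21 and 24 bases. A predicted candidate is a sequenced small RNA that matches no known family but lies in a transcript that can fold back on itself.

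The sequences below are those of the 15 distinct predicted sequences that reached the level minimum used for comparison, because the differences between libraries rest on them. They are written 5′ to 3′ in DNA letters as deposited, with bases 2 to 8, the seed, in capitals.
PC-3p-38044_103: tTCAGCCCcatgtcgctccgattca
PC-5p-19405_280: cGGGCAGAatcctttgcaga
PC-3p-132858_18: gGCTGTCGgtggactgctcgagcca
PC-5p-83176_32: aGCCTGGGaacaggcggagcc
PC-5p-66307_44: tTTCTCTCtcctcgcctataaacc
PC-5p-250886_9: tTTTTAGGtgagatggtttct
PC-5p-3490_1413: gAGGGCTGggctcgggggtcc
PC-5p-74066_38: tGGGAAAGaactatatgtagtgta
PC-3p-59683_52: tATATATTtgccaaggaaag
PC-5p-49381_69: tAAGTTCTtagttgagatggt
PC-5p-34356_122: tTTGATGGgaaagaattattt
PC-3p-45230_79: aGAAACCAtctcacctaaaaactt
PC-5p-85457_31 and PC-3p-85457_31: aGAAATCAtctcacctaaaaactt
PC-5p-34594_120: tGTTAGTCaattatgtagtct
PC-5p-40981_92: tTTCTAGTgacaaagacgtcc
The last sequence but 2 is listed under a 5p and a 3p name, with the same counts under each. That identical pair is the only case where a predicted entry has the same seed as any other listed entry, predicted or not.

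Levels are given as reads per 1000000 listed reads (RPM). Listed reads numbered 4622984 without salt and 734026 with salt, so the untreated library was 6.30 times deeper. Of the 42 predicted entries 18 hold parts of reads, as do 50 of the other 163. A single untreated read was worth 0.216 RPM and a single salt read 1.36 RPM. A count of 0 allows up to 3 reads, and this floor is 0.649 and 4.09 RPM. In RNA from whole organs, a lower level can mean fewer cells that hold a miRNA or less of it per cell, which cannot be told apart.

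Predicted entries were rare in both libraries. Together they held 6848.5 reads in the untreated library, a share of 0.148% (95% exact Clopper-Pearson interval 0.145 to 0.152), and 4008.5 reads in the salt library, a share of 0.546% (0.529 to 0.563). The share was thus 3.69-fold larger in the salt library. It rested on 1 precursor, on contig c2497_f2p2_1914_1_2kb, whose 2 entries made up 37.1% of predicted reads without salt and 83.9% with salt. Without that precursor the shares were 0.0932% and 0.0880%, a ratio of 0.945. Leaving out the precursor on contig c25662_f1p0_1124_2_3kb as well, an alternative chosen after seeing the data, gave 0.0377% and 0.0296%, a ratio of 0.783. The letters of the precursor on contig c2497_f2p2_1914_1_2kb resemble, by eye, the end of a large ribosomal RNA. No ribosomal reference was used here and the likeness was not tested, so these entries are miRNA candidates by their listed names only.

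The median predicted entry had 26.5 untreated and 4 salt reads. Over the other 163 entries the medians were 220.5 and 39.5 reads. All 42 predicted entries were seen in the untreated library, and 7 had no read in the salt library. Of the 163 other entries, 5 had no untreated read and 31 no salt read. With salt, 10 predicted entries had 10 or more reads and 32 had fewer, as did 68 of the 163 others. Depth there limits most comparisons below.

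**Figure D1:**
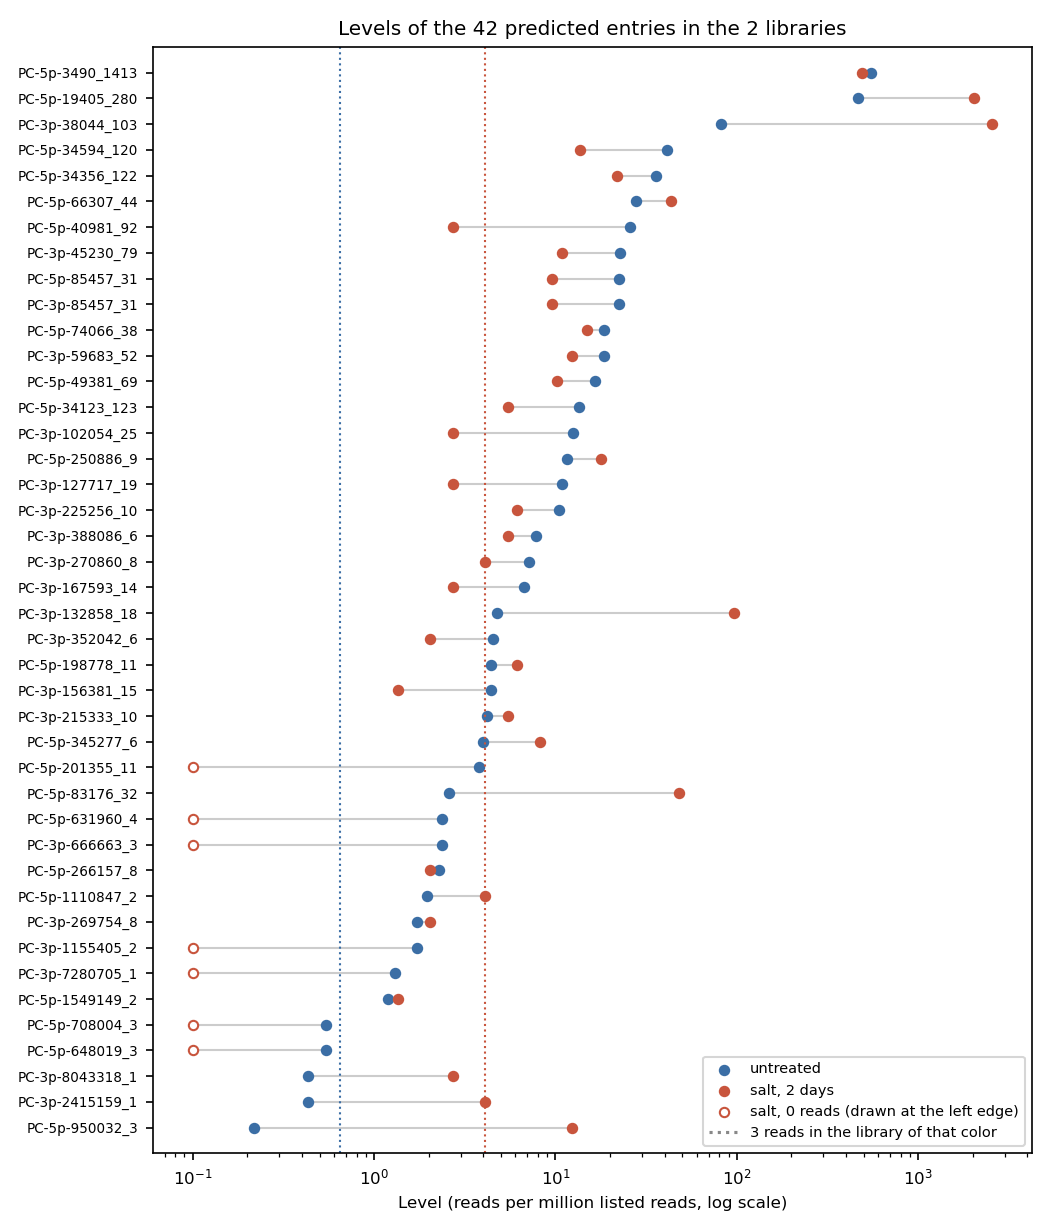
Level of each of the 42 predicted entries, in RPM on a log scale, in the untreated library (blue) and the salt library (red). The lines join the 2 libraries, open circles are entries with 0 salt reads, and the dotted lines mark 3 reads in each library. Only PC-3p-38044_103, PC-5p-19405_280 and PC-5p-3490_1413 stand above 100 RPM in either library, and 7 entries have no salt read.

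A level minimum of 10 RPM, averaged over both libraries, was passed by 16 predicted entries. With salt, 4 of them stood 2-fold or more above the untreated level, 4 stood 2-fold or more below it, and 8 lay within 2-fold. Calls used the log2 ratio of level + 1. Of all 115 listed entries past the minimum, 32.2% were called higher and 13% lower. The 16 predicted entries had a median log2 ratio of -0.43, and all 115 had a median of 0.33. The split depended on the scaling. Over the same 16 entries, a comparison added after the data were seen, it was 4 higher and 6 lower with the median ratio, 4 and 7 without miR159 in the total, and 3 and 10 without the 5 most abundant entries. With identical sequences counted once, 15 of the entries were left, and 4 were higher and 4 lower. Each scaling also changed which entries passed the minimum. Without the 5 most abundant entries, 31 predicted entries passed, of which 4 were higher and 20 lower, and of all 141 entries that passed, 19 were higher and 70 lower. The scalings moved the median of the 115 entries by -0.32 with the median ratio, -0.37 without miR159 and -1.20 without the 5 most abundant entries. With identical sequences counted once, the median over those left of the 115 differed by -0.17. Folds below are ratios of shares without the added 1. They carry 95% exact conditional binomial intervals, which count reads after rounding and cover counting error only.

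The hairpin on contig c2497_f2p2_1914_1_2kb, at positions 1772 to 1909, held the 2 most abundant predicted entries of the salt library. It is printed here because it carried most of the predicted salt reads. Capitals mark the 2 listed arms in the contig, and the untested likeness to ribosomal RNA bears on every value of this hairpin.
PC-5p-19405_280 and PC-3p-38044_103: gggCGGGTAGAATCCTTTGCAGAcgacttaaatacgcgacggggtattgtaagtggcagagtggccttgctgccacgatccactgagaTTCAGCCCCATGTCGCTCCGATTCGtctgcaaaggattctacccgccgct
PC-3p-38044_103, of 25 bases, had 380 untreated and 1873 salt reads, or 82.2 and 2552 RPM. It had the highest ratio of the 16, with a 31.0-fold larger share in the salt library (27.8 to 34.8). Its partner PC-5p-19405_280, of 20 bases, had 2161.5 and 1489.5 reads, or 468 and 2029 RPM. The salt level was 4.34-fold higher (4.06 to 4.64), and it fell within 2-fold, at 0.90 log2, without the 5 most abundant entries.

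The balance of the arms in that hairpin differed between the libraries. The 5p arm took 85.0% of the hairpin's reads in the untreated library (83.6 to 86.4) and 44.3% in the salt library (42.6 to 46.0). The 5p entry thus outnumbered the 3p entry 5.69-fold in the untreated library, while the 3p entry outnumbered the 5p entry 1.26-fold in the salt library.

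A GC-rich hairpin, on contig c25662_f1p0_1124_2_3kb at positions 1026 to 1124, held the most abundant untreated entry and a rare arm that was higher with salt. Capitals again mark the arms, and this hairpin was not compared with ribosomal RNA either.
PC-5p-3490_1413 and PC-3p-132858_18: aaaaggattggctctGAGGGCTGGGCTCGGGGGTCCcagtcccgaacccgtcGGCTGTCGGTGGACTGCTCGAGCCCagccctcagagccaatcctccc
PC-5p-3490_1413 had 2540 untreated and 358 salt reads, or 549 and 488 RPM. Its share was 1.13-fold lower in the salt library (1.01 to 1.26), and its log2 ratio became -1.39, past the 2-fold threshold, without the 5 most abundant entries. PC-3p-132858_18, of 25 bases, had 22 and 71 reads, or 4.76 and 96.7 RPM, a 20.3-fold higher share (12.4 to 34.4). The 5p arm made up 99.1% of the hairpin's untreated reads (98.7 to 99.5) and 83.4% of its salt reads (79.6 to 86.8).

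The remaining higher entry was PC-5p-83176_32, at 12 reads without and 35 with salt, or 2.60 and 47.7 RPM, an 18.4-fold higher share (9.31 to 38.9). Its hairpin partner PC-3p-666663_3 had 11 untreated reads and no salt read. Under all 5 scalings, the lowest log2 ratio was 3.73 for PC-3p-38044_103, 3.08 for PC-3p-132858_18 and 2.90 for PC-5p-83176_32.

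All 4 calls of a lower level stayed under the 5 scalings. The alternative scalings all lowered these ratios, so they were no check on a lower call. With a pseudocount of 5 the calls of PC-5p-85457_31 and PC-3p-85457_31 were lost, at -0.92 log2. PC-5p-40981_92 had 119 untreated and 2 salt reads, or 25.7 and 2.72 RPM, a 9.45-fold lower share (2.56 to 78.9). Its precursor, at positions 487 to 575 of contig c14741_f1p0_2984_2_3kb, is among the 2 with only 1 listed arm. PC-5p-34594_120 had 191 and 10 reads, or 41.3 and 13.6 RPM, a 3.03-fold lower share (1.61 to 6.43). The sequence listed as PC-5p-85457_31 and PC-3p-85457_31 had 104 and 7 reads, or 22.5 and 9.54 RPM, a 2.36-fold lower share (1.11 to 6.01). Each of these rests on 10 or fewer salt reads.

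Of the 8 entries within 2-fold, PC-5p-66307_44 was on the higher side, with 128 and 32 reads and a 1.57-fold higher share (1.03 to 2.33). PC-5p-250886_9 was also on the higher side, at 53.5 and 13 reads, 1.53-fold higher (0.759 to 2.82). Both ratios turned negative on the log2 scale, at -0.56 and -0.60, when the 5 most abundant entries were left out of the total. Under that scaling the other 6 of the 8 passed the 2-fold threshold as lower, with log2 ratios from -2.23 to -1.39. PC-3p-45230_79, at 104.5 and 8 reads, lay next to the threshold, 2.07-fold lower (1.02 to 4.95) as a ratio of shares but -0.99 log2 after adding 1. PC-5p-34356_122, at 166 and 16 reads, was 1.65-fold lower (0.985 to 2.95), PC-5p-49381_69, at 76 and 7.5 reads, 1.61-fold lower (0.728 to 3.62), and PC-3p-59683_52, at 86 and 9 reads, 1.52-fold lower (0.763 to 3.43). PC-5p-74066_38, at 86 and 11 reads, was 1.24-fold lower (0.660 to 2.58). The intervals of 5 of the 16 entries include an equal share, and those entries could not be told apart between the libraries at this depth.

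**Figure D2:**
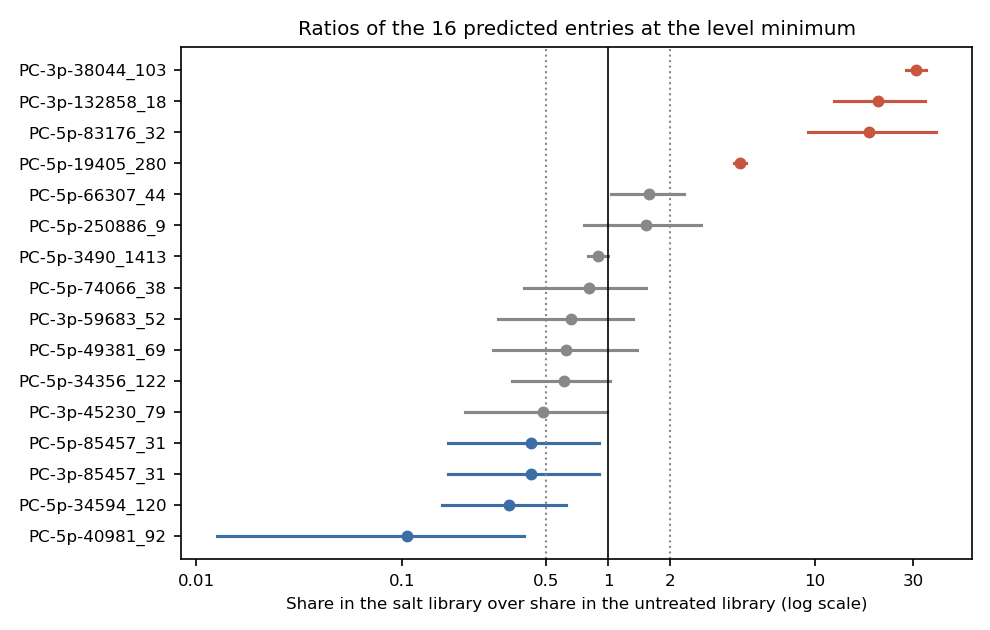
Share in the salt library over share in the untreated library for the 16 predicted entries at the level minimum, on a log scale; bars are 95% exact counting intervals. Red marks the 4 entries called higher, blue the 4 called lower and grey the 8 within 2-fold, and dotted lines stand at 0.5 and 2. PC-3p-38044_103 stands at 31.0 and PC-5p-40981_92 at 0.106.

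The 26 predicted entries below the level minimum had 1 to 62 untreated and 0 to 9 salt reads each, so no call was made for them. Their median levels were 3.08 RPM without and 2.72 RPM with salt. The 3 with most reads were PC-5p-34123_123 (62 and 4), PC-3p-102054_25 (57.5 and 2) and PC-3p-225256_10 (48.5 and 4.5). Counting intervals, which were not adjusted for the number of entries, excluded an equal share for 4 of the 26. PC-5p-950032_3 (1 and 9 reads) and PC-3p-2415159_1 (2 and 3 reads), the arms of 1 hairpin, had the larger share in the salt library, 56.7-fold (7.85 to 2484) and 9.45-fold (1.08 to 113). PC-3p-102054_25 was 4.56-fold lower (1.22 to 38.9) and PC-3p-127717_19, at 50.5 and 2 reads, 4.01-fold lower (1.06 to 34.3). The 7 entries with no salt read had 2.5 to 17.5 untreated reads. Their untreated levels of 0.541 to 3.79 RPM lay under the salt library's floor of 4.09 RPM, so their absence there was not detectable as a difference.

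Lengths of the predicted entries had 2 peaks. Of the 42 sequences 20 were of 21 bases (47.6%), as were 89 of the other 163 (54.6%). Another 14 (33.3%) were of 24 or 25 bases, against 11 (6.75%) of the other entries, and no predicted sequence had 22 bases, against 35 (21.5%) of the others. The first base was T in 20 predicted entries (47.6%) and in 90 others (55.2%); U at that place is known to favour loading into ARGONAUTE1. GC content of the mature sequence ranged from 23.8% to 81.0% with a median of 41.4%, and the median over the other entries was 50%.

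Every predicted entry has a precursor in the table, while 121 of the other 163 have none. Each precursor was folded with RNAfold at 37 degrees. A sequence was counted as lying in a stem when at least 15 of its bases were paired and none of them with each other. This held for 35 of the 42 predicted entries and for 35 of the 42 other entries with a precursor, so for 83.3% of all 84. The 7 that missed it were all 3p entries. PC-3p-38044_103 had 14 paired bases and PC-3p-352042_6 had 13. PC-3p-167593_14 had none, and in PC-3p-156381_15, PC-3p-2415159_1, PC-3p-8043318_1 and PC-3p-666663_3 bases paired within the sequence itself.

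The predicted precursors were 89 to 237 bases long, with a median of 173, against 79 to 190 and 139 for the 22 other precursors. Their GC content ran from 20.5% to 66.7%, with a median of 37.2%, against a median of 45.3% for the other precursors. The minimum free energy per 100 bases had a median of -37.6 over the predicted and -40.2 over the other precursors. The folding energy index, which is the minimum free energy per 100 bases over the GC percentage with its sign turned, had a median of 1.10 over the predicted and 0.876 over the other precursors. It was above 1 in 14 of the 22 predicted and 3 of the 22 others. The higher median index thus came with a lower GC percentage and not with a lower energy. Of the 22 predicted precursors, 7 belong to the AT-rich repeat described below. The highest value, 2.54, belonged to the precursor of PC-5p-266157_8 and PC-3p-102054_25 at positions 1041 to 1162 of contig c21974_f1p0_2314_2_3kb, in which all 21 bases of both entries were paired.

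**Figure D3:**
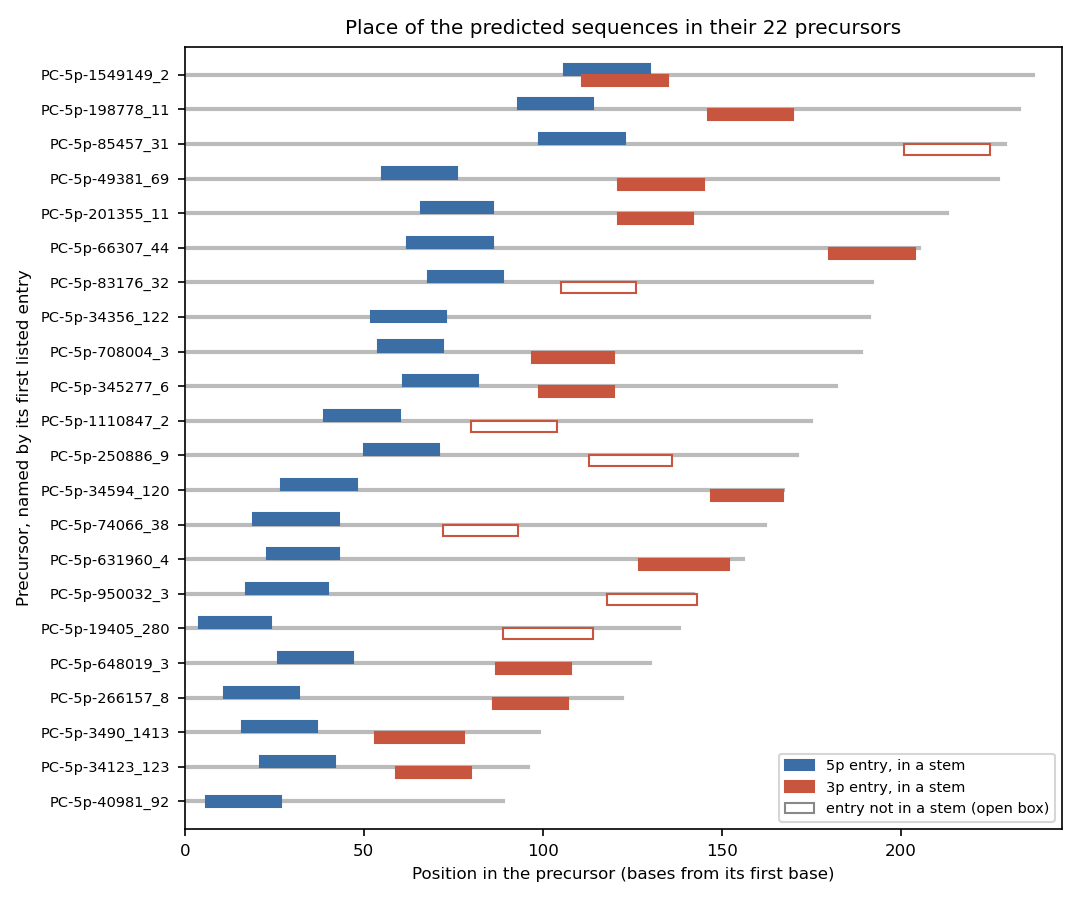
Each grey line is 1 of the 22 predicted precursors, drawn to scale in bases from its first base, with its 5p entry in blue and its 3p entry in red. Open boxes are the 7 entries not counted as lying in a stem, all 3p. The 5p and 3p boxes of the topmost precursor overlap.

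Folding into a stem did not mean that both listed arms formed a duplex with each other. Of the 20 predicted hairpins with both arms listed, 5 had at least 15 base pairs between the arms and 10 had none. Among the 20 hairpins of other entries with both arms listed, some of which are different cuts of the same locus, 11 had at least 15 pairs and 6 had none. The median was 4 pairs for predicted and 15 for other hairpins. Overhangs of 1 to 3 bases at both 3′ ends, close to the Dicer-like pattern of 2, were found in 2 predicted and 9 other hairpins. With 20 hairpins on each side and no independent members, no test was made of these counts.

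The predicted hairpin with the pattern of 2-base overhangs at both ends was that of PC-5p-648019_3 and PC-3p-215333_10, at positions 2834 to 2963 of contig c13433_f1p0_3381_2_3kb. It had 16 pairs between the arms, and is printed with its arms in capitals.
PC-5p-648019_3 and PC-3p-215333_10: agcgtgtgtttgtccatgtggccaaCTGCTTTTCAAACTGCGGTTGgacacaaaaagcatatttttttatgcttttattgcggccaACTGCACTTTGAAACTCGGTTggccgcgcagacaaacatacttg
Both arms were rare, with 2.5 and 19.5 untreated reads and 0 and 4 salt reads. The hairpin of PC-5p-34123_123 and PC-3p-269754_8 came next, with 16 pairs and overhangs of 3 and 3 bases. In the 2 most abundant hairpins, PC-5p-19405_280 and PC-3p-38044_103 had no pair with each other, and PC-5p-3490_1413 and PC-3p-132858_18 had 14 pairs but were offset by -5 and -7 bases. PC-5p-1549149_2 and PC-3p-85457_31 overlap by 19 bases on the same side of their hairpin, although 1 is named 5p and the other 3p.

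**Figure D4:**
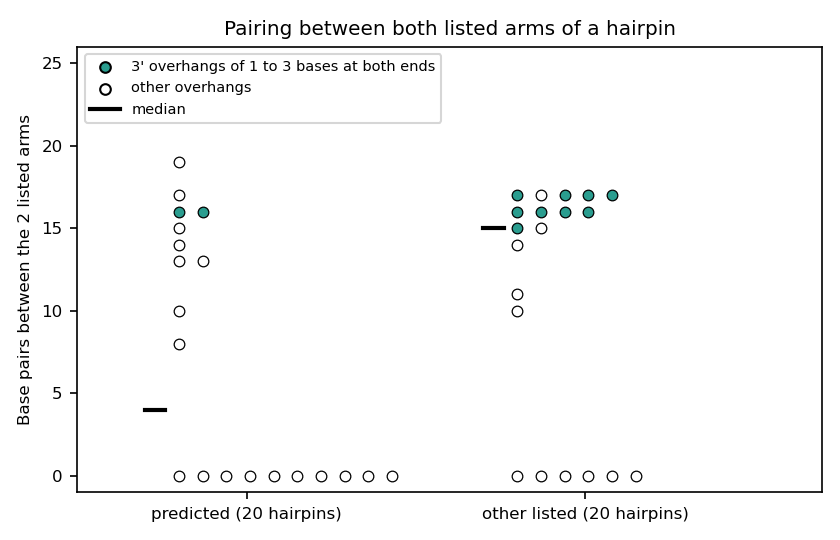
Each point is a hairpin with both arms listed, and its height is the number of base pairs between the arms in the folded precursor. Green points have 3′ overhangs of 1 to 3 bases at both ends, and short bars are medians. Of 20 predicted hairpins 10 sit at 0 and 2 are green, against 6 and 9 of the 20 other hairpins.

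In the salt library most predicted hairpins had few reads to show which arm led. The 5p arm had more untreated reads in 11 of the 20 hairpins and the 3p arm in 9. Of the 10 hairpins with at least 10 salt reads, 7 had the same leading arm in both libraries. The 3 others were that of PC-5p-19405_280, that of PC-5p-950032_3 with 3 untreated reads in all, and that of PC-5p-345277_6 and PC-3p-225256_10. In the last, the 5p share went from 27.6% (17.7 to 40.1) to 57.1% (23.4 to 83.3), with overlapping intervals.

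The largest set of related candidates came from an AT-rich inverted repeat. Entries that share at least 12 consecutive bases, on either strand, were joined, and 14 of the 42 entries fell together, from 7 precursors on 5 contigs. The set is shown because its members share much of their sequence, on the same or the opposite strand, and 6 of its 14 members have 24 bases. Besides PC-5p-49381_69, PC-3p-45230_79, PC-5p-250886_9 and the sequence listed as PC-5p-85457_31, printed above, it holds these.
PC-5p-198778_11: tTCTTAGTtgagatggttctt
PC-5p-201355_11: tCTTAGTTgagatggttctt
PC-3p-225256_10: tTTTAGGTgagatggtttctt
PC-5p-345277_6: aATCATCTcacctaaaaactt
PC-3p-127717_19: tTGTTAAGaaaccatctcacc
PC-3p-270860_8: tGTTTGTTaagaaaccatctcacc
PC-3p-167593_14: aAGAACCAtctcatctaaaaactt
PC-3p-352042_6: aGAACCATctcacctaaaaactt
PC-5p-1549149_2: tGTTAAAAaatcatctcacctaaa
With the sequence listed under both names counted a single time, the set had 584 untreated and 60 salt reads, or 126 and 81.7 RPM. That was 1.55-fold lower in the salt library (1.18 to 2.05). The log2 ratio of the sum ran from -1.85 to -0.63 over the 5 scalings. The alternative scalings could only lower it, so they were no check on its sign. Members ran from 1.19 to 22.6 RPM without salt and from 0 to 17.7 RPM with it, and 10 of the 14 hold parts of reads. On contig c42724_f7p4_1643_1_2kb, the precursor listed at 1023 to 1235 is over 151 bases the reverse complement of that listed at 1050 to 1231. On contig c30331_f1p1_1607_1_2kb the same holds over 149 bases for the precursors at 995 to 1227 and 1088 to 1316. Positions are given as deposited and the table names no strand, so the strand from which the reads of these entries came was not tested.

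A smaller set of 3 entries came from 2 precursors on contig c7095_f1p0_2766_2_3kb, at positions 978 to 1168 and 1518 to 1679. It joined PC-5p-34356_122 and PC-5p-74066_38 with PC-3p-156381_15, which had 20.5 untreated reads and 1 salt read. Their sum was 58.9 and 38.1 RPM, 1.55-fold lower in the salt library (1.05 to 2.37). Its log2 ratio ran from -1.85 to -0.63 over the 5 scalings, which again were no check on its sign.

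Other candidates lay in loci that the table also lists under a family name. PC-5p-83176_32 and PC-3p-666663_3 come from positions 75 to 266 of contig c6106_f1p0_1330_1_2kb. That stretch holds the whole precursor of ptc-miR408-3p_L-1R+1, at 130 to 232, and miR408 is known to act on messenger RNAs of copper proteins. In the longer fold, PC-5p-83176_32 made 18 base pairs with ptc-miR408-3p_L-1R+1 and none with its listed partner PC-3p-666663_3. The 18 pairs left 3′ overhangs of 0 bases at both ends, outside the 1 to 3 bases counted above. PC-5p-83176_32 shares 17 consecutive bases, from its base 4, with hbr-miR408a_R-1_1ss17AG, shown here beside it.
PC-5p-83176_32: aGCCTGGGaacaggcggagcc
hbr-miR408a_R-1_1ss17AG: aAGACTGGgaacaggcggagc
ptc-miR408-3p_L-1R+1: tGCACTGCctcttccctggct
While PC-5p-83176_32 was 18.4-fold higher in the salt library, hbr-miR408a_R-1_1ss17AG had 270.5 and 59.5 reads, a 1.39-fold higher share (1.04 to 1.85). The 3p entry ptc-miR408-3p_L-1R+1 stood at 6136 and 6888 RPM.

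PC-5p-34123_123 and PC-3p-269754_8 come from positions 3409 to 3504 of contig c1171_f6p3_3892_3_6kb, and all 96 bases of their precursor are the reverse complement of part of the ptc-MIR6469 precursor listed at 3323 to 3469. The precursor is printed to show both arms, in capitals, beside the listed entry whose reverse complement matches the first arm.
PC-5p-34123_123 and PC-3p-269754_8: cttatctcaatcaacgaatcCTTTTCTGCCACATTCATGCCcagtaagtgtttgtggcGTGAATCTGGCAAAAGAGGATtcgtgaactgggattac
ptc-MIR6469-p3: gAATGTGGcagaaaaggattc
The first 16 bases of PC-5p-34123_123 are the reverse complement of the start of ptc-MIR6469-p3. PC-5p-34123_123 had 62 untreated and 4 salt reads, a ratio of shares of 0.406 (0.107 to 1.09), and ptc-MIR6469-p3 had 28 and 2, a ratio of 0.450 (0.0519 to 1.78). The intervals of both include an equal share.

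Mature sequences did not always equal the contig they were placed on. Of the 42 predicted entries 25 (59.5%) were found exactly in their precursor and 17 differed at 1 base, while 30 of the 42 other entries with a precursor (71.4%) were exact. Differences are written as the contig's base, the position counted from 1 at the 5′ end of the mature sequence, and the mature base. In 8 of the 17 the contig had T and the mature sequence C, as in T5C in PC-5p-19405_280, T7C in PC-5p-49381_69 and T22C in PC-3p-45230_79 and in PC-5p-85457_31. In 3 the difference lay at the last base. These were G25A in PC-3p-38044_103, C25A in PC-3p-132858_18, and A21C in the MIR408-locus entry PC-5p-83176_32.

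The degradome library listed 94 pairs of a predicted entry and a cleavage position, out of 981 pairs in all. They belonged to 16 of the 42 predicted entries (38.1%), and 48.8% of all listed entries had a pair. Predicted entries stood at the upper end of the deposited alignment score. The files do not explain the score, and in common target scoring a lower value marks a closer match. It was 3.5 in 24 predicted pairs and 4, the highest value listed, in 70. None of the 94 scored 3 or lower, while 479 of 887 pairs of other entries (54.0%) did.

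The reads behind these pairs were few as well. The median predicted pair had 2 degradome reads and the median other pair 8. A single read supported 43 of the 94 predicted pairs (45.7%) and 200 of the 887 others (22.5%), and 10 or more reads supported 4 predicted (4.26%) and 416 other pairs (46.9%). In 89 predicted pairs the cleavage position lay 9 bases before the end of the aligned range, and in 5 it lay 8 bases before. A further deposited value, headed TPB, was at most 52.7 per read, and it was 10 times lower than that in 52 predicted pairs (55.3%) and 198 others (22.3%). Transcripts are not named, so the same reads may be listed at several transcripts of 1 gene, and pairs are not independent sites. The library mixed both conditions, so cleavage cannot be compared between them.

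**Figure D5:**
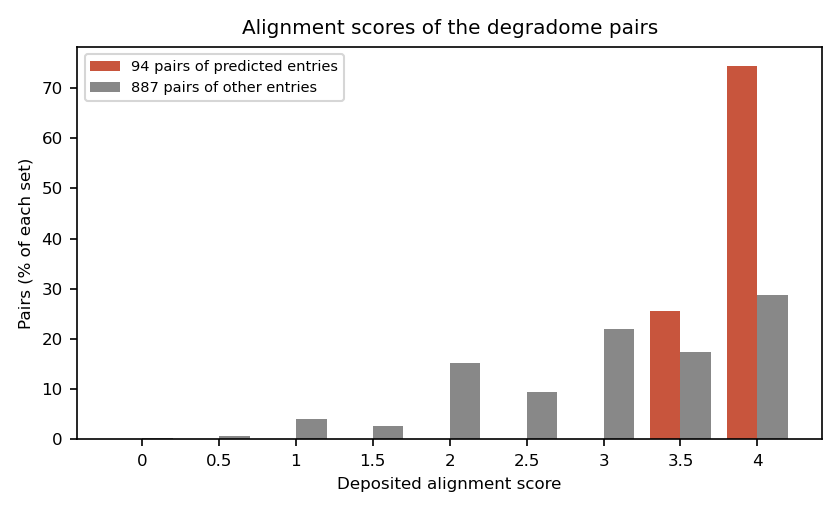
Share of degradome pairs at each deposited alignment score, in percent of each set, for the 94 pairs of predicted entries (red) and the 887 pairs of other entries (grey). The predicted pairs stand only at 3.5 and 4, with 74.5% at 4, where the other entries have 28.6%.

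Among gene names paired with predicted entries, HSP82 had the most reads, and the name is that of a heat shock chaperone of the HSP90 family. Its pairs came from the AT-rich repeat. PC-5p-198778_11 was paired with 4 positions (594, 1452, 1453 and 1569), each with a score of 4 and 25 reads. The TPB per read was 13.2 at each, 4 times below the highest, and 4 sites cannot be told apart from 25 reads listed 4 times. PC-5p-201355_11, whose sequence is contained in it, was paired with HSP82 at positions 1 base before those, at a score of 3.5 and with 1 read each.

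Genes of GRAS family regulators were paired with 3 other names from the same repeat, of which 2 are 1 sequence. Each of these pairs had a TPB per read 10 times below the highest. PC-5p-345277_6 had 10 pairs, of 1 or 2 reads and a score of 4, in genes named PAT1, SCL5, SCL21 and CIGR1. PAT1 is known from phytochrome A signalling in Arabidopsis, and CIGR1 as a gene of rice induced by chitin and gibberellin. The sequence listed as PC-5p-85457_31 and PC-3p-85457_31 had 6 pairs under each name, of 1 read each, in PAT1, SCL5 and CIGR1. In SCL5 its cleavage positions 323 and 1357 lay 3 bases after those of PC-5p-345277_6, at 320 and 1354. PC-5p-345277_6 is contained in it as its last 21 bases, and the aligned ranges of both start at 309 and 1343. The offset thus follows from their lengths. The sequence listed under both names was 2.36-fold lower in the salt library. PC-5p-345277_6 had 18.5 and 6 reads, a ratio of 2.04 with an interval of 0.650 to 5.18. The repeat also gave pairs in TMCO4, at 6 reads for PC-3p-225256_10 and 4 reads for PC-5p-250886_9, all with a score of 4.

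Of the 16 predicted entries at the level minimum 6 had a degradome pair. None of the 4 higher in the salt library had one, and 3 of the 4 lower did, of which 2 are 1 sequence. These are too few entries to set higher against lower. Besides PC-5p-85457_31 and its 3p name, the lower entry PC-5p-40981_92 had pairs, with 2 reads each and a score of 4, in SNL3 and SNL4, which are SIN3-like corepressors of transcription in Arabidopsis. PC-5p-34356_122 had 3 pairs of 2 reads and a score of 3.5 in HD16, known in rice as a casein kinase gene that delays flowering in long days. PC-5p-3490_1413 had 2 pairs of 1 read, without a gene name.

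The other pairs belonged to candidates of low level. PC-5p-34123_123 had 11 pairs, 7 of them without a gene name. They included AAO3, the aldehyde oxidase known in Arabidopsis for the last step of abscisic acid synthesis, with 1 read at position 2290 and a score of 3.5, and GLT1, a glutamate synthase gene, with 2 reads. GLT1 is the only gene name among the predicted entries' pairs that another listed entry, hbr-miR396a_R-3, shares, at a different position. PC-3p-215333_10, from the hairpin with 2-base overhangs, had 16 pairs of 1 or 2 reads and a score of 4. Of these 12 were in Os11g0104900, 3 in chc1 or chcA, names of clathrin heavy chain genes, and 1 in nxt3. Its partner PC-5p-648019_3 had 4 pairs in TAF4B, a subunit of the general transcription factor TFIID, and 1 in SPCC1223.01, of 1 read each. PC-5p-708004_3, of 18 bases, also had 16 pairs, of which 8 with 3 reads each were in At5g08530, a subunit of mitochondrial complex I in Arabidopsis. Its others were 5 in At5g16730, 2 in GGP5 and 1 in Tpr. PC-5p-950032_3 had 2 pairs of 2 reads in PETH, a name of ferredoxin-NADP reductase, and PC-5p-631960_4 had 2 pairs of 2 reads without a gene name.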

How the data were processed

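Mature sequences, precursors and estimated counts came from a deposited small RNA table, whose estimated count columns carry the mark raw in the header; 68 entries hold parts of reads. The 2 count columns, named 0d and 2d, were matched to the samples by their titles. Per the labels' protocols, total RNA was DNase-treated before Illumina small RNA library construction. Tools for mapping, prediction and degradome calls are not given in the sources used here. A second, degradome table holds raw counts of reads, an alignment score and a signal headed TPB, as deposited by the authors.

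Estimated counts were divided by the total over all listed entries and multiplied by 1000000. Ratios used a pseudocount of 1 and a mean level of at least 10 RPM. Counts were rounded only for intervals. These were tried on simulated whole counts with counting error only, which bears neither on the rounding nor on variation between libraries. With 1 library per condition no test was possible, and no p-value was computed. Precursors were folded with RNAfold 2.7.2; tables used Python 3.11.15, pandas 2.3.3 and scipy 1.17.1. Entries were named where they reached the level minimum, had a degradome pair, shared a sequence or contig with another entry, or had the most reads below the minimum. The members, sets and rules were chosen with earlier results of these data known.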

Additional observations from a re-analysis of the deposited data

How the results depend on the processing

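No paired analysis was possible because each condition has 1 library. The count of predicted entries at least 2-fold higher was 4 in the main setting, 3 to 5 elsewhere, and 7 with no level minimum. The count of lower entries, 4, was 5 or 6 with identical sequences counted once, a pseudocount of 0.1 or the median ratio. It became 20 of 31 entries past the minimum without the 5 most abundant entries and 9 of 18 without miR159. Over the same 16 entries these counts were 10 and 7, an alternative added after seeing the data. Of all entries, 70 of 141 and 26 of 117 were then lower, against 15 of 115. The count became 2 with a pseudocount of 5, 14 with no level minimum, 0 at a minimum of 50 RPM, 7 at 1.5-fold and 1 at 4-fold. The median log2 ratio of -0.43 was -0.74 with the median ratio, -1.87 over 31 entries without the 5 most abundant, -0.97 over 18 entries without miR159, -0.59 with identical sequences counted once and -0.62 with no minimum. Over the same 16 entries it was -0.74 with the median ratio, -1.65 with the 5 most abundant left out and -0.79 without miR159. At a minimum of 50 RPM, which left 4 entries, 3 of them higher, it turned to 3.10.

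The share of predicted entries was 0.168% of untreated reads with identical sequences counted once (0.558% of salt reads). It was 0.202% and 0.571% without miR159 entries. Leaving out the 5 entries of most reads gave 0.879% and 1.39%. It was 0.0932% and 0.0880% without the precursor on contig c2497_f2p2_1914_1_2kb, an alternative chosen after seeing the data. The 94 degradome pairs became 51 at 2 or more reads, 6 at 5 or more, 0 at a score of at most 3 or of at most 2, and 23 as distinct gene names. The 35 entries in a stem became 36 at 25 degrees, 37 with at least 13 and 32 with at least 17 paired bases. Of 95 recomputed log2 ratios of the 16 entries, 72 stayed inside the main counting interval, and no called entry changed sign. For entries called lower the alternative scalings only lowered the ratio, so their sign could not change there. Depth limits the salt library most, where 32 of 42 predicted entries had fewer than 10 reads.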

Other observations

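All 4 predicted entries that were higher in the salt library differ from their contig at 1 base, against 2 of the 4 lower entries, which are the identical sequences PC-5p-85457_31 and PC-3p-85457_31, and 2 of the 8 within 2-fold. The 3 entries that differ at the last base were the 3 with the highest ratios among the 16 at the level minimum. Among the 29 other entries at that level with a precursor, 8 differ from their contig, 1 of the 12 higher and 7 of the 17 within 2-fold. None of these 29 was called lower, so higher could not be set against lower among them. At the last base 3 of the 29 differ, and all 3 lay within 2-fold. This was noticed after the values were seen and rests on 3 entries, and its part in the ratios was not tested.

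The mature sequences of the 4 higher entries had GC contents of 55.0% to 71.4%, with a median of 62.0%, and the 4 lower entries 28.6% to 42.9%, with a median of 29.2%. The 8 within 2-fold ran from 23.8% to 81.0%. Among other entries at the level minimum, medians were 52.4% for higher and 47.6% for lower ones, and their ranges of 36.4% to 66.7% and 38.1% to 61.9% overlap. Predicted sequences and precursors were not compared with ribosomal or transfer RNA here. This bears on all of them, the GC-rich hairpin on contig c25662_f1p0_1124_2_3kb included. The likeness to ribosomal RNA seen by eye in the precursor on contig c2497_f2p2_1914_1_2kb was not tested.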
